A study of Mus musculus with 6 samples.

Results

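Pericyte marker genes were examined in infarcted mouse hearts, in which heart muscle has died for want of coronary blood flow. The 8 genes (Kcnj8, Abcc9, Rgs5, Higd1b, Vtn, Cspg4, Mcam and Notch3) are known markers of pericytes. The list was chosen with earlier results of these data known. Each gene was found as 1 row, by its Ensembl ID, among the 55401 rows of the deposited count table. One group of mice was housed in mild cold (16 °C for 7 days, 3 libraries) and the other at room temperature (22 °C, 3 libraries). The infarction is given for both groups by the design text of the series, while strain, sex, age and the time between infarction and sampling are not stated in the labels or the design text. The labels call every sample a whole heart, but the atrial transcript Myl7 had 0 to 6 counts in mild cold and 28312, 18 and 0 counts in room temperature 1 to 3, which goes against that label for 5 of the 6 libraries. The comparison asks how mild cold changed gene expression in the infarcted heart.

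Pericytes are mural cells that wrap the capillary endothelium and share its basement membrane. They are recruited by endothelial PDGF-B acting on the receptor encoded by Pdgfrb, and they help set capillary tone and stability. In the heart they are among the most common cells of the vessel wall. No single gene marks them alone. Vascular smooth muscle shares Notch3 and Mcam, endothelium also uses Mcam, glial precursors use Cspg4, cardiomyocytes use Abcc9, and hepatocytes make large amounts of Vtn.

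Of the 8 genes, Kcnj8, Abcc9, Rgs5, Higd1b and Vtn were higher in every mild cold library than in every room temperature library, by log2 fold changes of 0.43 to 0.68. Mcam was lower in every mild cold library, and Cspg4 was lower on average with groups that overlapped. Notch3 stood at nearly the same level in both groups. None of the 8 passed edgeR's quasi-likelihood test at a Benjamini-Hochberg adjusted p of 0.05 over the 16757 genes tested, and neither did any other gene (0%, with a smallest adjusted p of 0.0813). At an unadjusted p under 0.05, 5 of the 8 were higher and 2 lower, against 9.11% of all tested genes higher and 10.6% lower (19.7% in all, 3295 genes). Groups without overlap were seen for 5 members higher and 1 lower, against 12% and 13.1% of all tested genes (25.1% in either direction). Log2 fold changes were positive for 6 members and negative for 2, against 47.7% and 52.3% of all tested genes. These shares also apply to the other gene lists counted further below. The median log2 fold change was 0.49 over the 8 members and -0.02 over all tested genes. Because the members were chosen with earlier results of these data known, these counts are a description and not a test. The DESeq2 Wald test called 5 of the 8 at an adjusted p of 0.05, all higher, where it called 3.91% of all genes as higher (655 of 16757) and 8.44% in either direction. Limma-voom called 0 members and 0 genes. The split between directions depended on the scaling. With library totals only in place of TMM, under which all tested genes had a median of -0.27, 1 member was higher (Vtn) and 2 were lower (Cspg4 and Mcam) at an unadjusted p under 0.05, against 2.30% of all tested genes higher and 27.1% lower. Under that scaling 2 members were higher and 2 lower without overlap, against 2.77% and 32.3% of all tested genes. The log2 fold changes then were 0.44 for Vtn, 0.36 for Kcnj8, 0.32 for Abcc9, 0.32 for Higd1b, 0.17 for Rgs5, -0.54 for Cspg4 and -0.59 for Mcam. In whole-tissue RNA, fewer or more cells of a type and less or more RNA per cell cannot be told apart.

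**Figure D1:**
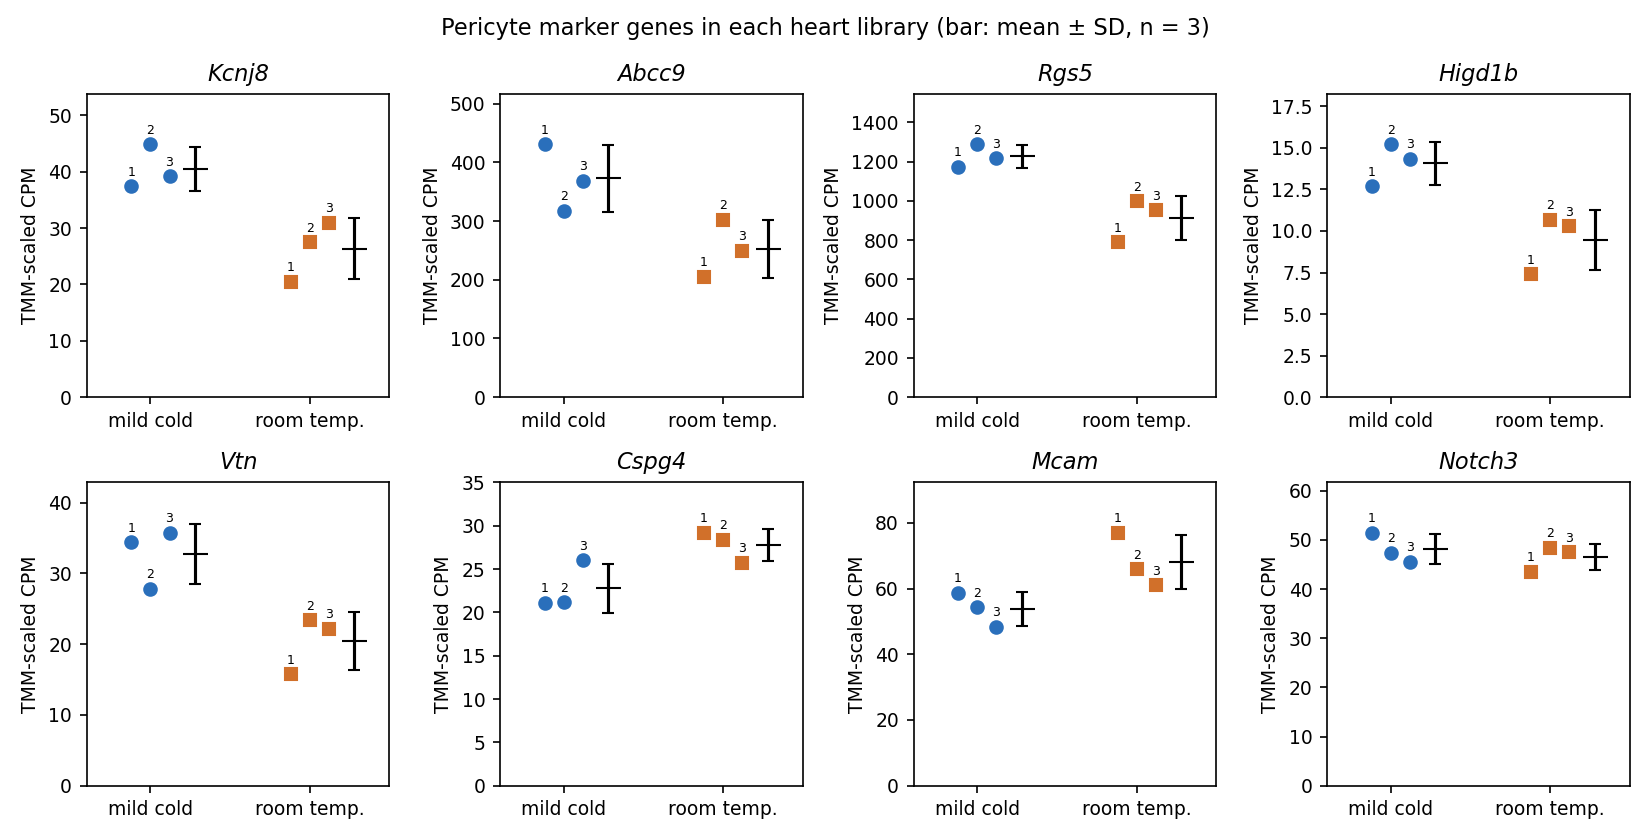
Level of each of the 8 pericyte marker genes (TMM-scaled CPM, y axis) in each library, with mild cold as blue circles, room temperature as orange squares and the replicate number above each point. Bars give the mean ± SD of 3 libraries. Kcnj8, Abcc9, Rgs5, Higd1b and Vtn are higher in all mild cold libraries than in any room temperature library, and Mcam is lower.

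Levels are CPM, counts divided by the size of each library after TMM scaling (the trimmed mean of log ratios between libraries), and a positive log2 fold change means a higher level in mild cold. All 8 members passed the filter on low counts, with 348 to 72226 counts per library, and together they took 0.134% to 0.172% of a library's counts. Library totals ran from 42139438 to 65285901 counts in mild cold and from 41619023 to 63946671 counts at room temperature. Mitochondrially encoded genes took 34.4% to 41.0% of the counts in mild cold and 26.2% to 31.6% at room temperature. Room temperature 1 stood apart by its atrial transcripts. It was also the lowest library for Kcnj8, Abcc9, Rgs5, Higd1b and Vtn. Without room temperature 1 their log2 fold changes were smaller, at 0.47, 0.43, 0.33, 0.42 and 0.52 in that order. The part of tissue content in these results was not tested. Mild cold 1 and 3 stood apart by hepatocyte transcripts, with Alb, the albumin gene, at 117.8 and 188.2 CPM. Alb stood at 3.43 CPM in mild cold 2, and at 6.76, 21.1 and 0.136 CPM in room temperature 1 to 3.

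Kcnj8 (ENSMUSG00000030247.9) and Abcc9 (ENSMUSG00000030249.15) encode the pore and the sulfonylurea receptor of the ATP-sensitive potassium (K-ATP) channel of pericytes and vascular smooth muscle, which opens when cell energy runs low and relaxes the vessel. They are neighbouring genes on mouse chromosome 6. Kcnj8 measured 37.4, 44.9 and 39.2 CPM in mild cold 1 to 3, against 20.4, 27.5 and 31.0 CPM in room temperature 1 to 3. The lowest mild cold library was above the highest room temperature library. Its means were 40.5 ± 3.92 CPM in mild cold, against 26.3 ± 5.37 CPM in the room temperature libraries (SD, n = 3 each), a log2 fold change of 0.62 (SE 0.16, edgeR adjusted p = 0.126). Abcc9 measured 431, 317.6 and 369 CPM in mild cold 1 to 3, against 205.3, 302.4 and 249.5 CPM in room temperature 1 to 3. These groups came close to each other, with mild cold 2 just above room temperature 2. The log2 fold change of Abcc9 was 0.56 (SE 0.18, edgeR adjusted p = 0.164).

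The 5′ flanks of these genes are shown beside those of Vtn, which had the highest fold change of the 8, and of Cspg4 and Notch3, which were not higher, so that the genes can be compared by sequence. They come from RefSeq (build GRCm38.p6, an earlier build than the GRCm39 named for the counts), which held promoters of 7 of the 8 members. Each runs 5′ to 3′ on the gene's own strand and ends before the first annotated exon base of GENCODE M21 or at the RefSeq start. They are Kcnj8 at chr6:142571615-142571864 (minus strand), Abcc9 at chr6:142702316-142702524 (minus strand), Vtn at chr11:78498870-78499090 (plus strand), Cspg4 at chr9:56864854-56865032 (plus strand) and Notch3 at chr17:32166891-32167140 (minus strand). Capitals mark matches, on either strand, to TGGGAA (core of the site for RBPJ, the DNA-binding partner of Notch), GGAATG (core of the TEAD site), TGANTCA (AP-1) or GGGCGG (the GC box of SP1).
Kcnj8: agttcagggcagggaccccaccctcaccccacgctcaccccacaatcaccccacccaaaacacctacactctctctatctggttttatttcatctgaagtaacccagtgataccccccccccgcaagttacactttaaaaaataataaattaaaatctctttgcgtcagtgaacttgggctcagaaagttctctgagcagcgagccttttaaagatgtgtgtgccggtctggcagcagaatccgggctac
Abcc9: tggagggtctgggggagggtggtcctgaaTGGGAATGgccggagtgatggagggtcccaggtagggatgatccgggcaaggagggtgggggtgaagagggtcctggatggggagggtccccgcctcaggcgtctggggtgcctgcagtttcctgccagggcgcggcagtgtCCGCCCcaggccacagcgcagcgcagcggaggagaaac
Vtn: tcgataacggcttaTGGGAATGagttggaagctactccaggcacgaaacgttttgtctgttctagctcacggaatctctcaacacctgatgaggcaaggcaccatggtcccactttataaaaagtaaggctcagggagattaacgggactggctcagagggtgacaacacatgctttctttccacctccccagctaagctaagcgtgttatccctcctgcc
Cspg4: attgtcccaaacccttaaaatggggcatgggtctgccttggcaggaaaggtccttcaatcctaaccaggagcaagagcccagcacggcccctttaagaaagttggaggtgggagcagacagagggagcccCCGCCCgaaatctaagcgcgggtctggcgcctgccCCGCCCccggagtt
Notch3: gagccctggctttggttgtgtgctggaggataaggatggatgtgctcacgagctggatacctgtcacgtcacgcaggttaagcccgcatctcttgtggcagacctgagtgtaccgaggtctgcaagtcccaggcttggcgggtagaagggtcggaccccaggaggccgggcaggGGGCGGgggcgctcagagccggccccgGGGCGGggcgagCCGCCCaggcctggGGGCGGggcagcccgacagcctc

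In the 250 bases before the RefSeq start, the Abcc9 and Vtn flanks each held 1 TGGGAA and 1 GGAATG, which overlap in the run TGGGAATG. TGGGAA was found in 21.5% and GGAATG in 12.6% of the 27025 promoters searched, and the 8-base run, looked up after it was seen, in 1.30%. GC boxes numbered 5 in Mcam, 4 in Notch3, 2 in Cspg4, 1 in Abcc9 and 0 in Kcnj8, Rgs5 and Vtn, where 32.9% of all promoters held at least 1. Only the first 61 bases of the Mcam window come before the first annotated exon base of GENCODE M21. All 5 of its GC boxes lie past that base. No TGANTCA was found in the 7 windows, where 6.87% of all promoters held one. The GC content of the windows was 73.6% for Mcam, 68.8% for Notch3, 66.8% for Abcc9 and 60.4% for Cspg4, against 53.6% for Rgs5, 50.4% for Vtn and 49.2% for Kcnj8. These matches are a description of letters and were not tested as binding sites.

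Kcnj11 and Abcc8 encode the other pore and the other sulfonylurea receptor of K-ATP channels, and Kcnj11 is the pore of cardiomyocytes. Kcnj11 measured 94.9, 56.1 and 78.2 CPM in mild cold 1 to 3, against 59.3, 74.0 and 49.6 CPM in room temperature 1 to 3 (log2 fold change 0.33, edgeR adjusted p = 0.443). Its groups overlapped, and mild cold 1 was the highest library for Kcnj11 as for Abcc9. Abcc8 was at 18.9 ± 4.31 CPM in mild cold, against 20.3 ± 10.05 CPM in the room temperature libraries (SD, n = 3 each, log2 fold change -0.10). Room temperature 1 held 31.4 CPM of Abcc8, against 17.7 and 11.9 CPM in room temperature 2 and 3. The log2 ratio of Kcnj8 to Kcnj11 counts, which needs no scaling between libraries, was -0.89 ± 0.52 in mild cold and -1.21 ± 0.47 at room temperature (SD, n = 3 each). The difference of 0.33 was within the spread (exact permutation p = 0.5, 2-sided, smallest possible 0.1), and it was 0.04 without mild cold 2. Abcc9 is shared with cardiomyocytes, and 9 of 9 cardiomyocyte markers had positive log2 fold changes (median 0.49), 3 of them at an unadjusted p under 0.05. Their summed level was 41936 to 52869 CPM in mild cold, against 29126 to 42670.4 CPM in the room temperature libraries. Their part in the Abcc9 result was not tested.

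Rgs5 (ENSMUSG00000026678.10, chromosome 1) encodes a regulator that shortens signals from G-protein-coupled receptors and is among the best-known pericyte markers. It was the most abundant of the 8, with 64.5% to 70.9% of their summed CPM in each library. Its level was 1174, 1289 and 1218 CPM in mild cold 1 to 3, against 788.8, 999 and 950.6 CPM in room temperature 1 to 3. The mild cold libraries lay close together and all above room temperature, where room temperature 1 was the lowest. The means were 1227 ± 57.8 CPM in mild cold, against 912.8 ± 110.1 CPM in the room temperature libraries (SD, n = 3 each), a log2 fold change of 0.43 (SE 0.14, edgeR adjusted p = 0.166). Of the 7 tested members of its RGS subfamily (9 in the list), Rgs5 was the one at an unadjusted p under 0.05 in either direction. Rgs4, also found in mural cells, was at 36.0 ± 1.57 CPM in mild cold, against 37.6 ± 7.48 CPM in the room temperature libraries. Rgs2 was at 21.2 ± 1.17 CPM in mild cold, against 33.3 ± 18.4 CPM in the room temperature libraries (SD, n = 3 each), where room temperature 1 held 54.3 CPM.

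Higd1b (ENSMUSG00000020928.14, chromosome 11) encodes a small mitochondrial membrane protein of the HIG1 hypoxia-inducible domain family, and its transcript is used as a pericyte marker. It was at 12.7, 15.2 and 14.3 CPM in mild cold 1 to 3, against 7.40, 10.7 and 10.3 CPM in room temperature 1 to 3. No mild cold library was as low as any room temperature library. The log2 fold change was 0.57 (SE 0.16, edgeR adjusted p = 0.143). All 3 tested members of the family had higher levels in every mild cold library (the fourth, Higd1c, had 0 counts in every library). Over all tested genes, 12% were higher without overlap. Higd1a, which stabilises respiratory complexes, stood at 108.8 ± 6.05 CPM in mild cold, against 65.4 ± 9.06 CPM in the room temperature libraries (SD, n = 3 each, log2 fold change 0.73, edgeR adjusted p = 0.0878). Higd2a was at 45.7 ± 3.42 CPM in mild cold, against 36.2 ± 3.25 CPM in the room temperature libraries (log2 fold change 0.34).

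Vtn (ENSMUSG00000017344.4, chromosome 11) encodes vitronectin, an adhesive glycoprotein of plasma and matrix that pericytes also secrete. Its level was 34.4, 27.8 and 35.8 CPM in mild cold 1 to 3, against 15.7, 23.4 and 22.2 CPM in room temperature 1 to 3. Mild cold 2 was the lowest of its group and still above all room temperature libraries. The means were 32.7 ± 4.25 CPM in mild cold, against 20.4 ± 4.10 CPM in the room temperature libraries (SD, n = 3 each), a log2 fold change of 0.68 (SE 0.17, edgeR adjusted p = 0.12).

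Hepatocytes are the main source of vitronectin in the body, and 14 of 15 hepatocyte markers had positive log2 fold changes, 10 of them at an unadjusted p under 0.05. Their summed level was 15.7 to 485.3 CPM in mild cold, against 106.4 to 540.2 CPM in the room temperature libraries. Most of the level at room temperature was Cyp2e1, which measured 21.7, 1.02 and 91.5 CPM in mild cold 1 to 3, against 511.8, 59.2 and 201.9 CPM in room temperature 1 to 3. Leaving out Cyp2e1, a choice made after its values were seen, the other 14 summed to 289.6, 14.7 and 393.8 CPM in mild cold 1 to 3, against 28.4, 47.2 and 5.39 CPM in room temperature 1 to 3. Cyp3a11, Fgg and Hamp were at 0 counts in room temperature 3. The sum in mild cold 2 lay below those of room temperature 1 and 2 and above that of room temperature 3. Without mild cold 1 and 3, the log2 fold change of Vtn was 0.45 (SE 0.26, edgeR unadjusted p = 0.142, adjusted p = 0.703), with mild cold 2 alone against 3 room temperature libraries and assumed to vary like them. In that fit 2 members (Kcnj8 and Higd1b) were higher and 1 (Cspg4) lower at an unadjusted p under 0.05, against 3.25% of all tested genes higher and 4.06% lower. The part of hepatocyte transcripts in the Vtn result was not tested.

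**Figure D2:**
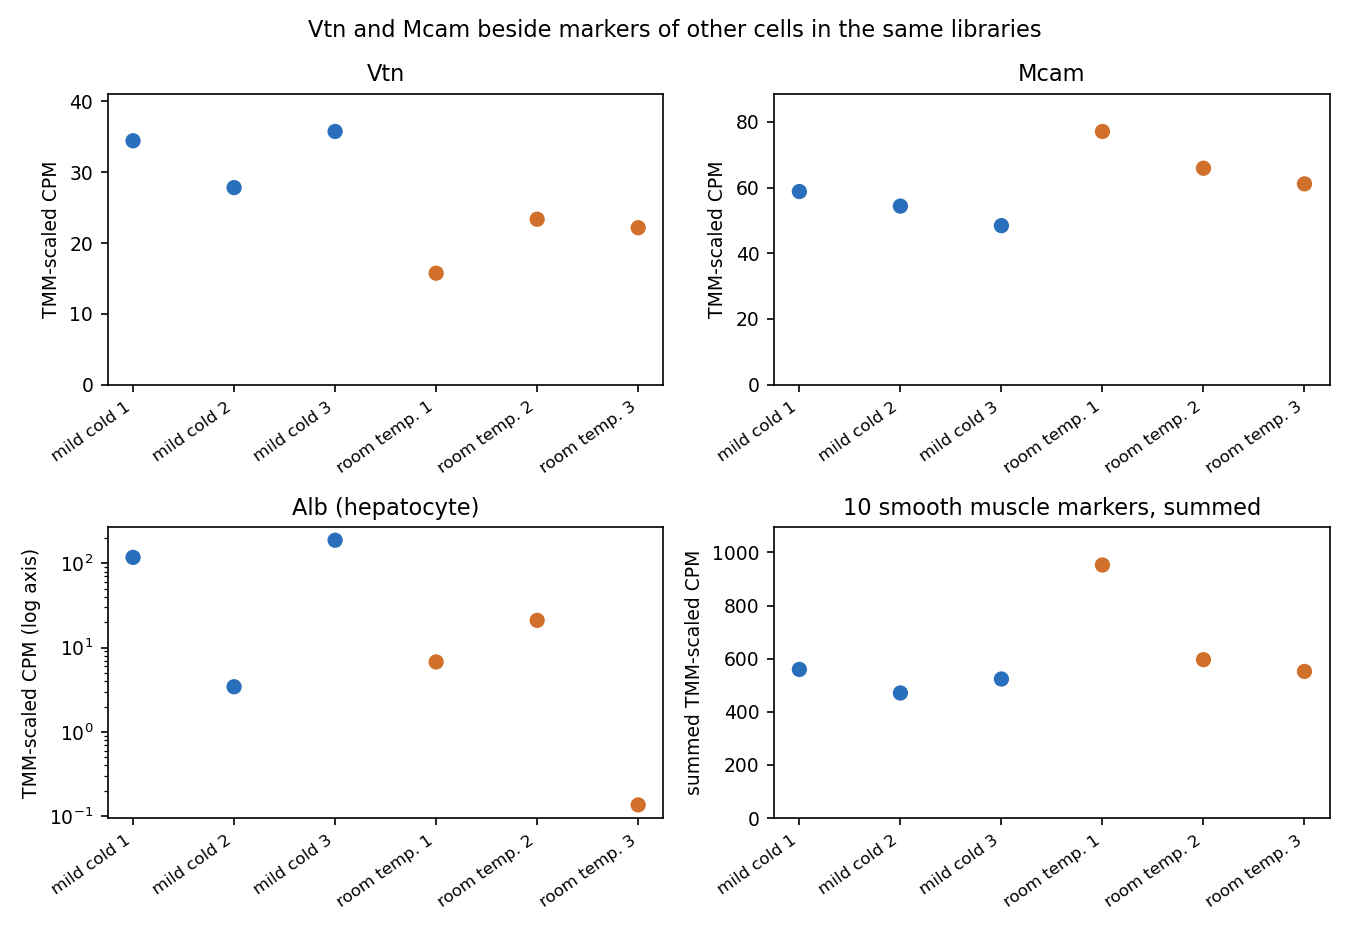
Vtn (top left) above the hepatocyte transcript Alb (bottom left, log axis), and Mcam (top right) above the summed level of 10 smooth muscle markers (bottom right), in TMM-scaled CPM for each library, with mild cold in blue and room temperature in orange. Alb is at 117.8 and 188.2 CPM in mild cold 1 and 3 and at 3.43 CPM in mild cold 2. Vtn in mild cold 2 is the lowest of its group and above all room temperature libraries. The part of hepatocyte transcripts in the Vtn level was not tested. Mcam and the smooth muscle sum are both highest in room temperature 1.

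Of 7 genes for vitronectin receptors and partners, 0 were higher and 4 lower at an unadjusted p under 0.05. Over all tested genes, 9.11% were higher and 10.6% lower. Itgav, the integrin chain that binds vitronectin, was at 40.8 ± 2.60 CPM in mild cold, against 60.6 ± 3.83 CPM in the room temperature libraries (SD, n = 3 each, log2 fold change -0.57, edgeR adjusted p = 0.0878). Its partner Itgb3 was at 5.59 ± 0.723 CPM in mild cold, against 8.58 ± 0.569 CPM in the room temperature libraries (log2 fold change -0.62). Itgb5, the other beta chain of a vitronectin receptor, was at 108.3 ± 19.0 CPM in mild cold, against 166.1 ± 39.99 CPM in the room temperature libraries (log2 fold change -0.62). Vtn and these receptor genes thus stood on opposite sides of their room temperature levels.

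Cspg4 (ENSMUSG00000032911.6, chromosome 9) encodes a membrane chondroitin sulfate proteoglycan of mural cells and of glial precursors that binds growth factors and collagen. It measured 21.1, 21.2 and 26.0 CPM in mild cold 1 to 3, against 29.2, 28.4 and 25.7 CPM in room temperature 1 to 3. The groups overlapped by 1 library, as mild cold 3 was just above room temperature 3. The log2 fold change was -0.29 (SE 0.12, edgeR adjusted p = 0.232). Of 7 Schwann cell and glial markers, 0 were higher and 2 lower at an unadjusted p under 0.05. Over all tested genes, 9.11% were higher and 10.6% lower. The markers had a summed level of 83.7 to 123.5 CPM in mild cold, against 128.7 to 190.4 CPM in the room temperature libraries. None of the 7 was at 0 in any library. Their part in the Cspg4 result was not tested.

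Mcam (ENSMUSG00000032135.15, chromosome 9) encodes an adhesion molecule of the immunoglobulin superfamily at the surface of mural and endothelial cells. It measured 58.8, 54.3 and 48.4 CPM in mild cold 1 to 3, against 77.1, 65.9 and 61.1 CPM in room temperature 1 to 3. Every mild cold library was below every room temperature library, and room temperature 1 was the highest. The means were 53.8 ± 5.22 CPM in mild cold, against 68.0 ± 8.19 CPM in the room temperature libraries (SD, n = 3 each), a log2 fold change of -0.34 (SE 0.12, edgeR adjusted p = 0.193), which was -0.24 without room temperature 1. Of 10 smooth muscle markers, 0 were higher and 5 lower at an unadjusted p under 0.05, with a summed level of 470.8 to 559.5 CPM in mild cold, against 552 to 952.5 CPM in the room temperature libraries. Myh11, the smooth muscle myosin heavy chain, measured 66.8 ± 3.64 CPM over the mild cold libraries (SD, n = 3), against 209.9, 92.0 and 88.6 CPM in room temperature 1 to 3. None of the smooth muscle markers was at 0 in any library. Of 14 endothelial markers, 4 were higher and 0 lower at an unadjusted p under 0.05, among them Esam at 86.8 ± 5.32 CPM in mild cold, against 66.5 ± 7.03 CPM in the room temperature libraries (SD, n = 3 each, log2 fold change 0.39). Log2 fold changes were positive for 12 of the 14 and negative for 2. Without overlap, 6 of the 14 were higher and 0 lower, against 12% and 13.1% of all tested genes. Their summed level overlapped, at 2315 to 3161 CPM in mild cold and 2155 to 2732 CPM at room temperature. The largest part of that sum was Fabp4, at 641.8, 1119 and 909.2 CPM in mild cold 1 to 3. In room temperature 1 to 3 Fabp4 measured 1515, 606 and 886.9 CPM. The part of smooth muscle and endothelial transcripts in the Mcam result was not tested.

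Notch3 (ENSMUSG00000038146.8, chromosome 17) encodes the Notch receptor of mural cells, which is activated by endothelial Jag1 and maintains the mural identity of the vessel wall. It measured 51.5, 47.4 and 45.6 CPM in mild cold 1 to 3, against 43.5, 48.4 and 47.5 CPM in room temperature 1 to 3. The groups overlapped almost fully, at 48.2 ± 3.02 CPM in mild cold, against 46.5 ± 2.61 CPM in the room temperature libraries (SD, n = 3 each). The log2 fold change was 0.05 (SE 0.09, edgeR adjusted p = 0.788), and it was -0.20 when libraries were scaled by their totals only. Of 25 Notch pathway genes, 0 were higher and 3 lower at an unadjusted p under 0.05, with a median log2 fold change of -0.01. Over all tested genes, 9.11% were higher and 10.6% lower, so the lower count was near that share. The 3 were Notch2, another receptor (log2 fold change -0.52, edgeR adjusted p = 0.0976), Lfng, which modifies Notch receptors with sugars (-0.43, edgeR adjusted p = 0.186), and Maml2, a coactivator (-0.24, edgeR adjusted p = 0.251). Heyl, a Notch target of mural cells, was at 26.3 ± 5.26 CPM in mild cold, against 32.4 ± 3.23 CPM in the room temperature libraries (log2 fold change -0.29), and Jag1 at 33.7 ± 8.28 CPM in mild cold, against 37.1 ± 2.34 CPM in the room temperature libraries (SD, n = 3 each). Both overlapped between the groups.

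**Figure D3:**
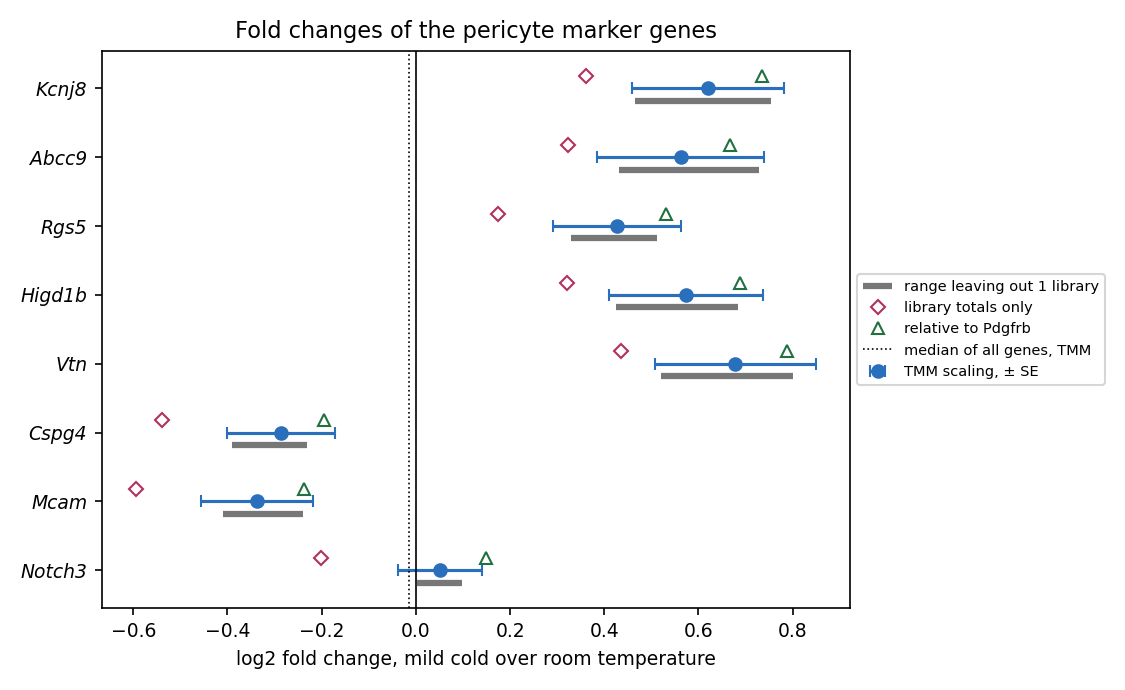
Log2 fold change of each pericyte marker gene, mild cold over room temperature (x axis), with blue points for TMM scaling (bars ± SE), grey bars for the range when 1 library is left out, open diamonds for scaling by library totals only and open triangles for counts relative to Pdgfrb. The top 5 genes lie above 0 on every measure drawn, Cspg4 and Mcam lie below 0 on every one, and Notch3 lies at 0.05 with TMM and at -0.20 with library totals only.

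Pdgfrb, the receptor that recruits mural cells and is also made by fibroblasts, was not among the 8. It measured 79.1, 86.7 and 90.9 CPM in mild cold 1 to 3, against 75.8, 99.6 and 101.1 CPM in room temperature 1 to 3, with groups that overlapped (log2 fold change -0.11, SE 0.13). The 8 members were also expressed relative to Pdgfrb within each library, a measure chosen after the data were seen. On this scale the same 5 members, Kcnj8, Abcc9, Rgs5, Higd1b and Vtn, were higher in every mild cold library, where 12.3% of all tested genes were higher without overlap and 6.56% lower. The log2 ratio of Rgs5 to Pdgfrb was 3.84 ± 0.09 in mild cold and 3.31 ± 0.07 at room temperature (SD, n = 3 each). That of Higd1b was -2.60 ± 0.08 in mild cold and -3.29 ± 0.07 at room temperature, and that of Kcnj8 was -1.08 ± 0.13 in mild cold and -1.82 ± 0.10 at room temperature. For these 3 genes the distance between the groups was several times the spread within either. Cspg4, Mcam and Notch3 overlapped between the groups on this scale, with differences of -0.19, -0.24 and 0.15.

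**Figure D4:**
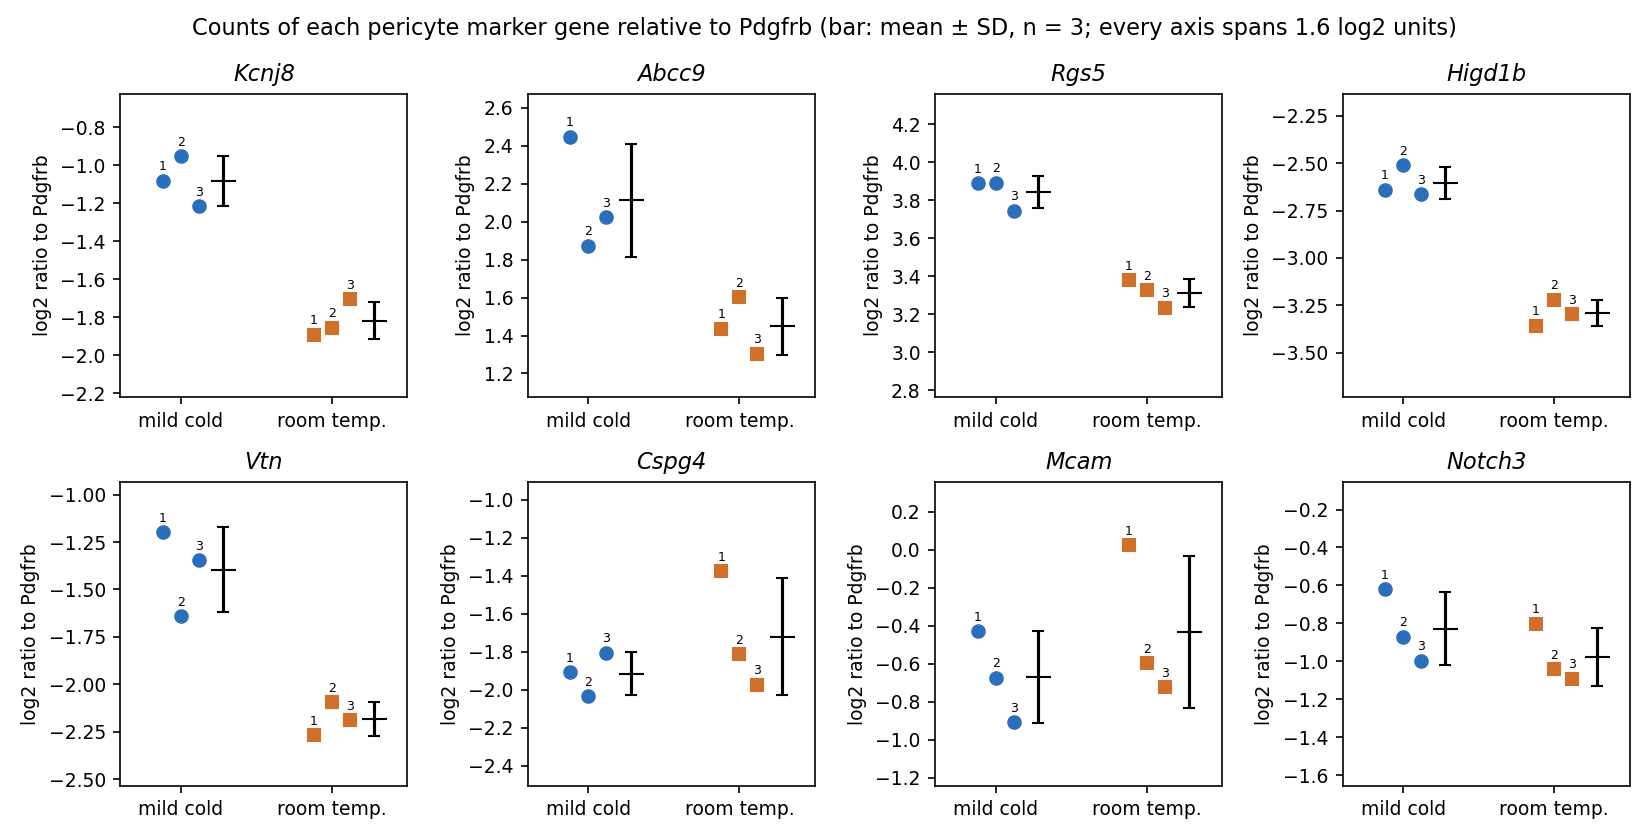
Log2 ratio of the counts of each pericyte marker gene to those of Pdgfrb (y axis, each spanning the same number of log2 units) in each library, with mild cold as blue circles, room temperature as orange squares and the replicate number above each point. Bars give the mean ± SD of 3 libraries. Rgs5, at 3.84 ± 0.09 in mild cold and 3.31 ± 0.07 at room temperature, Higd1b, Kcnj8, Abcc9 and Vtn separate the groups, while Cspg4, Mcam and Notch3 do not.

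Of 14 further genes of mural cells, 3 were higher and 3 lower in mild cold at an unadjusted p under 0.05, with a median log2 fold change of -0.10. P2ry14, a receptor for UDP-sugars, was at 7.33 ± 0.750 CPM in mild cold, against 4.32 ± 0.617 CPM in the room temperature libraries (SD, n = 3 each, log2 fold change 0.76, edgeR adjusted p = 0.109). Anpep, an aminopeptidase at the surface of pericytes and myeloid cells, was at 12.9 ± 1.09 CPM in mild cold, against 21.5 ± 5.54 CPM in the room temperature libraries (log2 fold change -0.74, edgeR adjusted p = 0.12). Gucy1a1, a subunit of the nitric oxide receptor, was at 35.02 ± 6.02 CPM in mild cold, against 50.4 ± 7.72 CPM in the room temperature libraries (log2 fold change -0.53, edgeR adjusted p = 0.153). Log2 fold changes were positive for 4 of these 14 mural genes and negative for 10, against 47.7% and 52.3% of all tested genes. Of 10 fibroblast markers 0 were higher and 6 lower at an unadjusted p under 0.05, and their summed level was 1952 to 3219 CPM in mild cold, against 3232 to 5174 CPM in the room temperature libraries. Of 8 macrophage markers, 0 were higher and 1 lower, where 9.11% of all tested genes were higher and 10.6% lower. The summed level of the macrophage markers was 506.2 to 665.8 CPM in mild cold, against 529.4 to 909.7 CPM in the room temperature libraries. The part of fibroblast and macrophage transcripts in these results was not tested.

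Divided by exon length, the members could be compared with each other. Rgs5 was highest at 269.9 ± 12.7 CPM per kb in mild cold and 200.8 ± 24.2 CPM per kb at room temperature, followed by Abcc9 at 44.5 ± 6.78 CPM per kb in mild cold and 30.1 ± 5.81 CPM per kb at room temperature (SD, n = 3 each). Next in mild cold came Higd1b (16.6 ± 1.53), Vtn (16.1 ± 2.09), Mcam (16.1 ± 1.56) and Kcnj8 (15.9 ± 1.54 CPM per kb), which did not differ beyond their spread. At room temperature Mcam, at 20.3 ± 2.44 CPM per kb, was above Higd1b (11.2 ± 2.11), Kcnj8 (10.3 ± 2.11) and Vtn (10.1 ± 2.02 CPM per kb) in every library, and those 3 did not differ beyond their spread. Notch3 was at 5.95 ± 0.37 CPM per kb in mild cold and 5.74 ± 0.32 CPM per kb at room temperature, and Cspg4 was lowest at 1.91 ± 0.24 CPM per kb in mild cold and 2.33 ± 0.15 CPM per kb at room temperature. Exon length was taken over all annotated transcripts, so a gene that uses short ones is understated.

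Likeness of pattern was measured as the root-mean-square (RMS) difference between log2 CPM profiles over the 6 libraries, each centred on its own mean, among 13487 genes with a mean of at least 1 CPM and no zero. Kcnj8 and Higd1b were closest among the members, with an RMS difference of 0.0789, and each ranked sixth among all genes for the other. Abcc9 was the nearest member to Vtn, at an RMS difference of 0.122 and rank 12. In the other direction Vtn, the nearest member to Abcc9, was at rank 109. For Rgs5 the nearest member was Higd1b, at an RMS difference of 0.111 and rank 245. For Cspg4 the nearest member was Mcam, at an RMS difference of 0.188 and rank 2214, and for Notch3 it was Rgs5 at rank 6923, so these members had many closer genes outside the 8. Mcam was the farthest member from Vtn, Kcnj8, Abcc9, Higd1b and Rgs5. The mean centred profile of the 8 was 0.16, 0.12 and 0.16 in mild cold 1 to 3, against -0.31, -0.03 and -0.10 in room temperature 1 to 3, and the genes nearest to it were Psmg2 (RMS difference 0.0213), Pank4 (0.0249), Otub1 (0.0280), Gm20300 (0.0309) and Psmb5 (0.0311). With 6 libraries, ranks of this kind are a description.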

How the data were processed

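RNA was measured in 6 heart libraries, 3 per group. The deposited table holds unnormalized whole-number counts for each gene. FeatureCounts 2.0.3 and the build GRCm39 are named in the submitters' processing notes. For the aligner, annotation release, strand and pair handling, no source used here gives a name or setting. Among counts of 1 to 10, the share of even values per library was 71.9% to 78.3%, so counts may not be independent fragments.

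Symbols came from GENCODE M21, matched on the Ensembl ID without version (55141 of 55401 IDs; the rest made up no more than 0.0021% of any library). Exon length and overlap between genes came from the same annotation. Bases shared with a gene on the other strand made up 6.03% of the exons of Notch3 (Gm17276), 1.89% of Abcc9 (5330439B14Rik) and 0.507% of Mcam (Gm10687), and reads there cannot be told apart.

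The test of counts was that of edgeR 4.0.16 under R 4.3.3 (quasi-likelihood test, 2-sided, group only, default expression filter by group, TMM scaling), with Benjamini-Hochberg adjustment over 16757 genes and a threshold of 0.05. DESeq2 1.42.0 and limma 3.58.1 served as alternatives, beside other scalings, filters, omitted libraries and a replicate block. The 8 members and all gene lists were chosen with earlier results of these data known. Named were the 8 members, Pdgfrb, Kcnj11, Abcc8 and genes needed to state a marker level. From each list, up to 3 genes by smallest p were also named, Rgs2 and Rgs4 among them. Heyl, Jag1 and Cyp2e1 were added after their values were seen. No p was adjusted over a list alone. One gene of the Schwann cell and glial list is not reported here and was left out of its counts and sums. Replicates carry numbers in the labels, which do not call them separate animals, and a p-value therefore reflects library spread that could be technical in origin. No pair of libraries held the same counts.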

Additional observations from a re-analysis of the deposited data

How the results depend on the processing

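Direction held for 7 of the 8 members under every alternative run, and none of the 8 passed an adjusted p of 0.05 except by the DESeq2 Wald test, which called 5 members (Kcnj8, Abcc9, Rgs5, Higd1b and Vtn). The lowest adjusted p under the other alternatives was 0.0599, for Mcam with library totals only. Notch3 changed sign with library totals only, at a log2 fold change of -0.20, a scaling that moved the median of all genes to -0.27. Under that scaling 3 members (1 higher, 2 lower) stood at an unadjusted p under 0.05, against 7 with TMM (5 higher, 2 lower), and 356 genes passed the threshold (10 higher, 346 lower). Without mild cold 1 and 3, 3 members (2 higher, 1 lower) stood at an unadjusted p under 0.05, with 1 library left in mild cold. The number of all genes past the threshold was 184 with no expression filter, 1414 by the DESeq2 Wald test and 1 with the replicate block. Leaving out 1 library at a time gave 0 to 2 genes past the threshold (2 without room temperature 1) and 0 members. It gave log2 ratios of Kcnj8 to Kcnj11 that differed by 0.04 to 0.59. Deviations of libraries of the same number correlated across genes at 0.12, -0.13 and -0.01. Mild cold 1 correlated at 0.28 with room temperature 2 and at -0.44 with room temperature 3. Mild cold 2 correlated at 0.40 with room temperature 3. With 3 libraries per group, such values cannot decide whether the replicate numbers pair the libraries. With the replicate block, 0 members passed the threshold. Each member had at least 348 counts in every library, and counting error was not set against the spread between libraries.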
